A study of Homo sapiens with 6 samples.

Results

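The genes described here are 39 genes of the NRF2 antioxidant programme and of the pentose phosphate pathway, taken by symbol from the 56638 gene symbols of the count files. They comprise NFE2L2 (which encodes NRF2) and its inhibitor KEAP1, 30 genes of antioxidant, glutathione, thioredoxin, detoxification, drug export and iron storage enzymes, and 7 genes of the pentose phosphate pathway. The samples were total RNA of HCT116, a human colorectal cancer cell line, all cultured in McCoy's 5a medium with fetal bovine serum and all labelled with passages 16 to 19. There were 3 wild-type samples (WT1 to WT3) and 3 samples of METTL3 knockout cells (METTL3-KO1 to METTL3-KO3), in which METTL3, the catalytic subunit of the RNA m6A methyltransferase, had been targeted with CRISPR/Cas9. The knockout cells were a single monoclonal line that had passed through lentiviral transduction and puromycin selection, so differences between clones and the effect of the knockout cannot be told apart. Nothing in the labels says that the replicates came from separate cultures, so the p-values measure the spread between these samples, which may be technical.

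NRF2 is a transcription factor of the cap'n'collar family. KEAP1 holds it in the cytoplasm and directs its degradation through a ubiquitin ligase, and oxidants or electrophiles that modify KEAP1 let NRF2 accumulate and bind, with a small MAF protein, to antioxidant response elements near its target genes. Those genes make and recycle glutathione and thioredoxin, reduce quinones and aldehydes, export conjugates and store iron. The pentose phosphate pathway supplies the NADPH that these reductions consume: its oxidative branch yields NADPH and ribulose phosphate, and its non-oxidative branch interconverts sugar phosphates and yields ribose for nucleotides.

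Counts on genes ranged from 20936091 to 30142144 per sample. METTL3 itself was at 30.0 ± 0.724 CPM (counts per 1000000 counts on genes) in WT and 7.28 ± 0.400 CPM in METTL3-KO (SD, n = 3 each), which is −2.04 on the log2 scale with an SE of 0.0906 (adjusted p = 1.59e-07). The summed level of 8 colorectal epithelial markers lay between 6724 and 8264 CPM in WT and between 9290 and 10413 CPM in METTL3-KO. The sum of 4 immune markers was 5.25 to 6.81 CPM in WT and 6.73 to 10.6 CPM in METTL3-KO, nearly all of it CD14, and that of 4 fibroblast markers 4.69 to 6.19 and 6.30 to 7.91 CPM, nearly all of it COL1A1. Of the immune and fibroblast markers CD79A alone passed the test, with 4, 4 and 1 counts in WT and 12, 14 and 14 counts in METTL3-KO (log2 fold change 2.05, adjusted p = 0.0106). Of the epithelial markers CDH1 (0.23, adjusted p = 0.0396), KRT8 (0.36, 0.0143), KRT19 (0.82, 0.000134) and VIL1 (0.62, 3.91e-05) were higher in METTL3-KO. EPCAM, KRT18, CDX1 and LGALS4 did not pass. The sum of 3 endothelial markers was at most 0.182 CPM, PECAM1 and COL3A1 had no count in any sample, and PTPRC reached 0.0469 CPM at most. The part of these levels in the results was not tested. WT3 and METTL3-KO3 stood apart from the other samples of their groups, in opposite directions and along transcript length, as is described below for these genes. CPM were computed on library sizes scaled by the trimmed mean of M-values, log2 fold changes are METTL3-KO minus WT, and every adjusted p is from the quasi-likelihood test of edgeR with Benjamini-Hochberg adjustment over all 22452 genes tested.

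The core letters shared by antioxidant response elements, TGACNNNGC, were searched on both strands from 1000 bases before to 100 bases after the start of each gene's canonical transcript in GRCh37, the build of the files. They were found for 20 of the 39 genes (51.3%), and for 6458 of 17997 protein-coding genes (35.9%), so the letters alone are common. The 20 genes held 23 such words, 11 on the strand of the gene and 12 on the opposite strand. The windows below are from GRCh37 with the word in capitals and 10 bases on each side, and are shown because NQO1, TALDO1, GSTP1 and ABCC1 are 4 of the 5 genes with the identical word TGACTCAGC, some of which passed the test and some not, and because GCLM and PGD carry other words.
NQO1 (chr16:69760900-69760928, minus strand): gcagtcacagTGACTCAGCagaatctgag
TALDO1 (chr11:746501-746529, plus strand): acccagggacTGACTCAGCataagcggac
GSTP1 (chr11:67351207-67351235, plus strand): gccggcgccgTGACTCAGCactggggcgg
ABCC1 (chr16:16042926-16042954, plus strand): tccttctgtgTGACTCAGCtttggagtca
GCLM (chr1:94375002-94375030, plus strand): tggaagacaaTGACTAAGCagaaatcgta
PGD (chr1:10458910-10458938, minus strand): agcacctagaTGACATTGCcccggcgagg

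Relative to the start of the transcript, in bases with minus for upstream, the centre of the word lay at −451 for NQO1, −949 for TALDO1, −62 for GSTP1, −533 for ABCC1, −30 for GCLM and −197 for PGD. A match is a string of letters and was not measured as a binding site.

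In METTL3-KO cells NFE2L2, the glutathione synthesis genes GCLC and GSS, and the aldo-keto reductase genes AKR1B10, AKR1C1 and AKR1C2 were lower than in WT. So were the exporter gene ABCC3, the ferritin light chain gene FTL and the oxidative pentose phosphate genes PGD and H6PD. GCLC was called in 5 of the 6 fits that left out a sample. GCLM, which encodes the other subunit of the same enzyme, did not pass the test. RPIA was higher and was called in every fit that left out a sample. SOD2 and CAT were also higher, but were called in 2 and 1 of those 6 fits. All 39 genes passed the filter on low counts, and 14 fell and 3 rose at an adjusted p under 0.05, where 13.2% of all tested genes fell and 13.3% rose. Most of the 39 are well expressed, and among the genes of a mean log2 CPM over 3, where 20.6% fell and 20.1% rose, 12 of the 34 such members fell and 3 rose. The median log2 fold change was −0.15 over the 39 genes and −0.02 over all tested genes. The 3 METTL3-KO values were all below the 3 WT values for 15 of the 39 genes and all above them for 4. Of all tested genes 20.7% had such separate groups with METTL3-KO below and 20.2% with METTL3-KO above. Leaving out 1 sample at a time, between 9 of the 39 genes (without METTL3-KO2, where 8.99% of all tested genes fell and 10.2% rose) and 18 (without WT3, where 17.3% fell and 17.4% rose) were called lower. The number called higher was 1 without WT1 (where 10.5% of all tested genes rose), WT2 (11.1%), METTL3-KO1 (10%) or METTL3-KO3 (11.5%).

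NFE2L2, on chromosome 2 (178083395 to 178257484, minus strand), was at 132, 140 and 136 CPM in WT1, WT2 and WT3 and at 94.2, 99.4 and 91.8 CPM in METTL3-KO1, METTL3-KO2 and METTL3-KO3. Every METTL3-KO sample was below every WT sample, and METTL3-KO cells held 70.0% of the WT level (log2 fold change −0.51, SE 0.0699, adjusted p = 0.000225). KEAP1, on chromosome 19 (10596801 to 10614234, minus strand), was at 63.9, 63.2 and 54.1 CPM in WT and at 55.9, 51.5 and 55.7 CPM in METTL3-KO. The groups overlapped because of WT3, and the difference of −0.15 did not pass the test (SE 0.0848, adjusted p = 0.215), but it did without WT3 (−0.22, adjusted p = 0.0170). The level of NFE2L2 divided by that of KEAP1 was 2.06, 2.21 and 2.51 in WT and 1.68, 1.93 and 1.65 in METTL3-KO. This ratio and those given below for other pairs were chosen after the values were seen, and are given as a description with no test.

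In quinone and haem detoxification, NQO1, which reduces quinones, was at 598, 580 and 523 CPM in WT and 448, 447 and 499 CPM in METTL3-KO. Other genes of the NRF2 programme, such as GCLM, TXNRD1 and SRXN1, did not pass the test and are given below. The groups did not overlap, but WT3 and METTL3-KO3 lay close to each other, and the fall of 0.29 on the log2 scale (SE 0.0771, adjusted p = 0.0161) was no longer called without WT1 (adjusted p = 0.0767), WT2 (0.0646), METTL3-KO1 (0.0877) or METTL3-KO2 (0.0979). HMOX1, haem oxygenase, was low, at 18.3, 19.8 and 16.1 CPM in WT and 15.0, 14.0 and 14.4 CPM in METTL3-KO, again with no overlap. Its log2 fold change of −0.32 (SE 0.0993, adjusted p = 0.0321) lost its call without WT1 (adjusted p = 0.0932), WT2 (0.151), METTL3-KO1 (0.0721), METTL3-KO2 (0.124) or METTL3-KO3 (0.0745). In the annotation, 22.8% of the exonic bases of NQO1 overlap another gene.

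Among the 5 genes that supply and recycle glutathione, 2 fell and none rose, where 13.2% of all tested genes fell and 13.3% rose. So few genes cannot be read against that share. GCLC, the catalytic subunit of glutamate-cysteine ligase, was at 92.5, 85.9 and 99.97 CPM in WT and 77.9, 73.5 and 71.5 CPM in METTL3-KO (log2 fold change −0.32, SE 0.0792, adjusted p = 0.0104). It was called in 5 of the 6 fits that left out a sample and had an adjusted p of 0.0552 without METTL3-KO2. GCLM, the modifier subunit of the same enzyme, was at 34.1 ± 5.34 CPM in WT and 33.7 ± 0.668 CPM in METTL3-KO (SD, n = 3), a log2 fold change of −0.02 (SE 0.105). The ratio of GCLC to GCLM was 2.74, 2.96 and 2.52 in WT and 2.27, 2.19 and 2.16 in METTL3-KO.

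GSS, glutathione synthetase, which adds glycine in the last step of synthesis, was at 93.9, 86.8 and 83.6 CPM in WT and 64.5, 63.4 and 70.3 CPM in METTL3-KO (log2 fold change −0.42, SE 0.0779, adjusted p = 0.00194), and it was called in every fit that left out a sample. GSR, the reductase that regenerates glutathione with NADPH, was at 71.3 ± 4.16 and 70.4 ± 1.65 CPM in WT and METTL3-KO. SLC7A11, the cystine importer, was at 116, 90.3 and 205 CPM in WT and 109, 90.7 and 82.2 CPM in METTL3-KO, and its difference of −0.54 on the log2 scale did not pass the test (SE 0.230, adjusted p = 0.106). WT3 was the highest sample, and without it that value was −0.13 (adjusted p = 0.387). Without WT2, the lowest WT sample, it was −0.76 and passed the test (adjusted p = 0.0171). With all samples and no filter beyond 1 count it was −0.54 (SE 0.0863, adjusted p = 1.15e-08). The SE was smaller there at the same 6 values, so that adjusted p does not measure the spread of this gene between the samples.

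Among the 5 glutathione peroxidase and transferase genes MGST1 alone passed the test. MGST1, the membrane-bound glutathione transferase, was at 128, 121 and 109 CPM in WT and 90.6, 91.8 and 108 CPM in METTL3-KO. WT3 and METTL3-KO3 were almost equal, and the log2 fold change of −0.31 (SE 0.0902, adjusted p = 0.0254) was not called without WT1 (adjusted p = 0.102), WT2 (0.0786), METTL3-KO1 (0.123) or METTL3-KO2 (0.123). GPX2, the gastrointestinal glutathione peroxidase, was at 1086, 1140 and 845 CPM in WT and 858, 817 and 941 CPM in METTL3-KO. It did not pass the test over all samples (−0.23, adjusted p = 0.126), whereas without WT3 its log2 fold change was −0.35 (adjusted p = 0.000173).

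GPX4, which reduces lipid hydroperoxides in membranes, GSTP1, the most abundant transferase here, and GPX1 had log2 fold changes of −0.06, −0.01 and 0.07, each smaller than its SE (0.106, 0.0972 and 0.0974). For GSTP1 the values were 787, 783 and 642 CPM in WT and 693, 683 and 823 CPM in METTL3-KO, so that the samples numbered 3 were the lowest of WT and the highest of METTL3-KO. In GPX1 65.5% of the 100-base exonic words also occur in another gene model and 63.6% of exonic bases overlap one, so its counts are uncertain.

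None of the 5 thioredoxin and peroxiredoxin genes passed the test. TXN, thioredoxin, was at 296 ± 33.5 and 283 ± 19.7 CPM in WT and METTL3-KO (SD, n = 3), and TXNRD1, the selenoprotein reductase that recharges it with NADPH, at 290 ± 28.5 and 287 ± 15.7 CPM. Their log2 fold changes were −0.07 (SE 0.0908) and −0.01 (SE 0.0829). PRDX1, a cytosolic peroxiredoxin, came closest to the threshold, with 477, 444 and 385 CPM in WT and 351, 347 and 397 CPM in METTL3-KO (−0.25, SE 0.0896, adjusted p = 0.0571). It passed without WT3 (−0.33, adjusted p = 0.000529) and without METTL3-KO3 (−0.31, adjusted p = 0.0375).

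PRDX6, a peroxiredoxin that also acts on phospholipids, had a log2 fold change of −0.05 (SE 0.0856). SRXN1, sulfiredoxin, had 12, 9 and 25 counts in WT and 14, 17 and 6 counts in METTL3-KO, and its log2 fold change of −0.41 had an SE of 0.497. In the annotation 90.7% of its exonic bases lie in another gene on the same strand, so its counts are uncertain, since union counting leaves out reads that touch both genes. Of the exonic bases of PRDX1, 38.5% overlap a gene on the opposite strand.

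The aldo-keto reductases, which reduce aldehydes and ketones with NADPH, held the genes with the lowest fold changes of the 39. AKR1B10, on chromosome 7 (134212319 to 134226164, plus strand), was at 88.1, 71.9 and 73.7 CPM in WT and 48.0, 42.8 and 46.5 CPM in METTL3-KO, with 58.7% of the WT level in METTL3-KO (log2 fold change −0.77, SE 0.0926, adjusted p = 9.83e-05). AKR1C1, on chromosome 10 (5005445 to 5025475, plus strand), was at 9.98, 9.91 and 9.05 CPM in WT and 5.71, 5.50 and 6.04 CPM in METTL3-KO (−0.75, SE 0.109, adjusted p = 0.000360). AKR1C2, next to it (5029967 to 5060223, minus strand), was at 7.58, 8.01 and 5.72 CPM in WT and 2.99, 4.23 and 4.80 CPM in METTL3-KO (−0.84, SE 0.185, adjusted p = 0.00510). For all 3 genes the groups did not overlap, and all 3 were called in every fit that left out a sample.

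AKR1C1 and AKR1C2 are near-identical copies: 25.6% of the 100-base exonic words of AKR1C2 also occur in AKR1C1, and 12.4% of those of AKR1C1 in AKR1C2. Reads that fell on both were not counted, so the counts of 193 to 274 and 122 to 208 in WT and of 121 to 172 and 90 to 113 in METTL3-KO come from the remaining bases. AKR1C3, another gene of that cluster that acts on prostaglandins and steroids, was at 60.3, 53.0 and 43.7 CPM in WT and 55.2, 55.4 and 61.1 CPM in METTL3-KO (0.13, SE 0.108, adjusted p = 0.424). The ratio of AKR1C1 to AKR1C3 was accordingly 0.166, 0.187 and 0.207 in WT and 0.103, 0.0994 and 0.0987 in METTL3-KO. AKR1B1, aldose reductase, was barely counted, with 2, 0 and 3 counts in WT and 9, 1 and 3 counts in METTL3-KO (1.20, SE 0.914).

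ABCC3, an exporter of glucuronide and glutathione conjugates on chromosome 17 (48712138 to 48769614, plus strand), was at 1203, 1251 and 1271 CPM in WT and 895, 885 and 870 CPM in METTL3-KO. This was among the tightest separations of the 39 genes, with 71.1% of the WT level in METTL3-KO (log2 fold change −0.49, SE 0.0627, adjusted p = 0.000149). ABCC1 was at 111 ± 11.9 and 105 ± 2.98 CPM in WT and METTL3-KO (−0.08, SE 0.0844). ABCC2 had 15, 8 and 11 counts in WT and 23, 18 and 17 counts in METTL3-KO. Scaled to CPM, its METTL3-KO samples were all above WT, but the log2 fold change of 0.69 did not pass the test (SE 0.311, adjusted p = 0.130).

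Ferritin, which stores iron, is made of a light and a heavy chain. FTL, the light chain, on chromosome 19 (49468566 to 49470136, plus strand), was at 2308, 2044 and 1726 CPM in WT and 1302, 1263 and 1562 CPM in METTL3-KO (log2 fold change −0.56, SE 0.109, adjusted p = 0.00246). The groups did not overlap, and the gene was called in every fit that left out a sample. FTH1, the heavy chain, was at 656, 599 and 524 CPM in WT and 565, 570 and 658 CPM in METTL3-KO (0.01, SE 0.0923, adjusted p = 0.939). Their ratio was 3.52, 3.41 and 3.29 in WT and 2.30, 2.22 and 2.37 in METTL3-KO, a log2 difference of −0.57. FTH1 shares 20.7% of its 100-base exonic words with 8 other gene models and 73.2% of its exonic bases overlap a gene on the opposite strand, whereas FTL shares 3.4%.

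Of the 3 superoxide dismutase and catalase genes 2 were higher in METTL3-KO, where 13.3% of all tested genes were, and none passed the test as lower. SOD2, the mitochondrial manganese enzyme, was at 42.0, 42.3 and 46.7 CPM in WT and 56.0, 49.5 and 54.7 CPM in METTL3-KO (log2 fold change 0.29, SE 0.0815, adjusted p = 0.0194). CAT, catalase, was at 132, 129.6 and 126 CPM in WT and 150.5, 147 and 158 CPM in METTL3-KO (0.23, SE 0.0683, adjusted p = 0.0248). The groups did not overlap for either gene, yet both calls depended on single samples. SOD2 lost its call without WT1 (adjusted p = 0.0711), WT2 (0.0560), METTL3-KO1 (0.0922) or METTL3-KO3 (0.0552), and CAT was called in 1 of the 6 fits, with adjusted p values between 0.0548 and 0.0831 in the others. SOD1, the cytosolic copper and zinc enzyme, was at 127 ± 12.4 and 116 ± 8.26 CPM (−0.13, SE 0.0880, adjusted p = 0.320).

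In the oxidative branch of the pentose phosphate pathway 2 of 3 genes fell, where 13.2% of all tested genes did, too few genes to be read against that share. PGD, the cytosolic dehydrogenase that yields NADPH and ribulose phosphate, on chromosome 1 (10458649 to 10480568, plus strand), was at 276, 277 and 256 CPM in WT and 194, 190.2 and 194 CPM in METTL3-KO (log2 fold change −0.49, SE 0.0675, adjusted p = 0.000263). H6PD, which carries out the opening steps of the branch inside the endoplasmic reticulum, also on chromosome 1 (9294833 to 9331396, plus strand), was at 61.4, 60.2 and 68.3 CPM in WT and 44.6, 47.5 and 43.6 CPM in METTL3-KO (−0.48, SE 0.0794, adjusted p = 0.000790). Both genes were at 71.4% and 71.5% of their WT levels, with no overlap, and both were called in every fit that left out a sample. PGLS, the lactonase between the dehydrogenase steps, was at 46.6 ± 7.94 and 47.6 ± 4.69 CPM (0.03, SE 0.119).

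In the non-oxidative branch 1 gene fell, 1 rose and 2 did not pass the test. Of all tested genes 13.2% fell and 13.3% rose, and these genes are too few to be read against that. RPIA, which converts ribulose phosphate to ribose phosphate, on chromosome 2 (88991191 to 89050446, plus strand), was at 37.2, 34.6 and 33.4 CPM in WT and 47.2, 41.6 and 45.3 CPM in METTL3-KO (log2 fold change 0.35, SE 0.0822, adjusted p = 0.00787), and was called in every fit that left out a sample. RPE, the epimerase that competes for the same ribulose phosphate, was at 69.2, 67.2 and 74.0 CPM in WT and 60.2, 62.9 and 60.2 CPM in METTL3-KO. The groups did not overlap, but the difference of −0.20 did not pass the test (SE 0.0729, adjusted p = 0.0648).

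TALDO1, transaldolase, on chromosome 11 (747415 to 765012, plus strand), was at 528, 519 and 417 CPM in WT and 362, 357 and 408 CPM in METTL3-KO (−0.38, SE 0.0956, adjusted p = 0.0117). WT3 and METTL3-KO3 nearly met, and the call was lost without WT1 (adjusted p = 0.0587), WT2 (0.0568), METTL3-KO1 (0.0625) or METTL3-KO2 (0.0753). TKT, transketolase, was at 578 ± 42.2 and 552 ± 37.8 CPM (−0.06, SE 0.0783). The ratio of TALDO1 to TKT was 0.843, 0.931 and 0.759 in WT and 0.666, 0.687 and 0.686 in METTL3-KO.

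WT3 and METTL3-KO3 were displaced along transcript length for these genes and for the well-expressed genes at large. Among the tested genes of a mean log2 CPM over 3, the deviation from the group mean correlated with log2 length at 0.671 in WT3 and −0.606 in METTL3-KO3. Over the 36 genes with at least 100 counts, the log2 difference of WT3 from the mean of WT1 and WT2 followed log2 transcript length with Pearson r = 0.760 and Spearman rho = 0.785, and that of METTL3-KO3 from METTL3-KO1 and METTL3-KO2 with r = −0.685 and rho = −0.731. These are correlations across genes within 1 sample each, and genes are not independent replicates. Of the 18 genes with a canonical transcript under 2000 bases, WT3 was below the other WT samples in 18 (median −0.27) and METTL3-KO3 above the other METTL3-KO samples in 17 (median 0.17). Of the 18 longer genes the medians were 0.08 and −0.03. The part of this displacement in the comparison of the groups was not tested beyond the fits that follow.

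With both samples numbered 3 left out, which leaves 2 against 2, 26 of the 39 genes fell and 4 rose, where 22.7% of the genes tested in that fit fell and 21.4% rose. All 14 genes that fell and all 3 that rose over all samples were among them. The 12 further genes that fell were KEAP1, GPX2, GPX4, GSTP1, TXN, PRDX1, PRDX6, FTH1, SOD1, PGLS, RPE and TKT, and the further gene that rose was TXNRD1. The samples left out were those that stood apart, so the remaining spread was smaller (SE of FTL 0.0378, against 0.109 over all samples). The further calls are therefore not stronger evidence than the fit over all samples. With all samples and a correction for transcript length and GC content within each sample, 20 fell and 3 rose, where 17.1% and 17.2% of all tested genes did. Here the 6 further genes were KEAP1, SLC7A11, GPX2, PRDX1, ABCC1 and RPE. Without both samples numbered 3 the log2 fold change was −0.49 for NFE2L2, −0.82 for AKR1B10, −0.53 for PGD and 0.31 for RPIA, and that of FTL went from −0.56 over all samples to −0.76.

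Set per kilobase of canonical transcript, the mean WT levels of these genes ranged from 2326 CPM per kilobase for FTL and 1110.4 for GPX2 down to 0.0523 for AKR1B1. NFE2L2 was at 55.5 and KEAP1 at 23.6 CPM per kilobase in WT, and at 38.9 and 21.2 in METTL3-KO. In the pentose phosphate pathway TALDO1 (407), TKT (193) and PGD (119) were the highest in WT and H6PD (6.92) the lowest. The drug exporters ran from 218 for ABCC3 to 0.0813 for ABCC2, and AKR1C1 (1.47) and AKR1C2 (2.21) lay far under AKR1B10 (48.1) and AKR1C3 (44.1). The level of SOD2, 3.08 in WT, was divided by a canonical transcript of 14167 bases and so depends on that choice.

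Of the 20 genes with the word TGACNNNGC in the window, 8 fell and none rose, with a median log2 fold change of −0.22. Those 8 were NQO1, GCLC, MGST1, AKR1B10, ABCC3, PGD, H6PD and TALDO1. Of the 19 without it 6 fell (NFE2L2, HMOX1, GSS, AKR1C1, AKR1C2 and FTL) and 3 rose, with a median of −0.06. Among all tested protein-coding genes 17.4% of those with the word fell and 18.4% rose, and 16.9% of those without it fell and 18% rose. Of the 5 genes with TGACTCAGC, NQO1 and TALDO1 fell, and the other three did not pass the test.

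Another 76 genes of the same pathways were taken as 5 lists, of which 74 could be tested, and 19 fell and 10 rose, where 13.2% of all tested genes fell and 13.3% rose, with a median log2 fold change of −0.10. The number that rose is near that share, and the lists that follow hold too few genes to be read against it. Among 13 partners and regulators of NRF2, 2 fell and 4 rose. NFE2L3, the NRF2 paralog, went from 149 to 114 CPM (−0.39, adjusted p = 0.00105) and BTRC, an alternative ubiquitin ligase adaptor for NRF2, from 23.5 to 17.0 CPM (−0.47, adjusted p = 0.00243). MAFF, a small MAF partner, went from 23.8 to 31.6 CPM (0.41, adjusted p = 0.00266), and GSK3B, the kinase that marks NRF2 for BTRC, from 90.3 to 118 CPM (0.39, adjusted p = 0.0129).

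Among 19 other genes listed with NRF2 targets 6 fell and 2 rose. ME1 and IDH1, which make NADPH in the cytosol outside the pentose phosphate pathway, were the 2 that rose, from 34.0 to 50.7 CPM (0.58, adjusted p = 0.000403) and from 270.0 to 334 CPM (0.31, adjusted p = 0.00563). TXNIP, which binds and inhibits thioredoxin and is not a classical NRF2 target, fell from 147 to 99.4 CPM (−0.57, adjusted p = 0.000960), and SLC3A2, the heavy chain that partners SLC7A11 in the membrane, from 237 to 180.4 CPM (−0.39, adjusted p = 0.00317).

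Among 19 other glutathione enzymes, 18 were tested, and 6 fell and 2 rose. The 2 that rose were the transferases GSTZ1, from 15.4 to 29.4 CPM (0.93, adjusted p = 4.5e-05), and GSTA4, which conjugates lipid aldehydes, from 14.2 to 24.5 CPM (0.78, adjusted p = 0.000119). GLO1, the glutathione-dependent glyoxalase, fell from 205 to 146 CPM (−0.49, adjusted p = 0.000293), and OPLAH, 5-oxoprolinase, from 12.5 to 6.95 CPM (−0.85, adjusted p = 0.000387).

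Of 16 other thioredoxin and peroxiredoxin genes 3 fell and 2 rose. SESN1, a sestrin, fell from 24.8 to 14.7 CPM (−0.76, adjusted p = 8.67e-05) and PRDX2 from 99.5 to 77.4 CPM (−0.36, adjusted p = 0.0106), whereas GLRX, glutaredoxin, rose from 17.7 to 32.6 CPM (0.88, adjusted p = 0.000204) and PRDX4, the peroxiredoxin of the endoplasmic reticulum, from 23.5 to 34.8 CPM (0.56, adjusted p = 0.00313). Of 9 other genes tied to the pentose phosphate pathway 8 were tested, and 2 fell and none rose. These were PRPS2, which makes phosphoribosyl pyrophosphate, from 15.7 to 11.9 CPM (−0.40, adjusted p = 0.0130), and DERA, deoxyribose-phosphate aldolase, from 32.2 to 26.2 CPM (−0.30, adjusted p = 0.0219). TKTL1, a transketolase-like gene, had no count in any sample.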

How the data were processed

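RNA of 3 WT and 3 METTL3-KO HCT116 samples was sequenced with paired ends by the authors, who aligned the reads with TopHat2 (version 2.0.11 in the submitters' processing notes) to hg19 and counted them with HTSeq, whose union mode assigns a read only where it touches a single gene. Each deposited table gives unnormalized counts by symbol for 1 sample. The HTSeq version and the strand setting are not given in the sources used here. Reads in several genes (7.95% to 8.77% of all reads) or aligned at several places stay out of the counts, which lowers genes with copies or overlaps. Summary lines for such reads were left out of library sizes.

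From the counts, genes with at least 5 counts in total in WT or in METTL3-KO were kept (22452 of 56638), and edgeR 4.0.16 in R 4.3.3 was fitted to all of them with TMM scaling, with adjusted p under 0.05 as the threshold. The SE is the log2 fold change divided by the root of the F statistic. The code was tested on simulated data. DESeq2 1.42.0, other scalings and filters, a replicate block, a length and GC correction, and fits without samples were alternatives. Gene positions, transcript lengths, overlaps and shared 100-base words are from GENCODE 44 mapped to GRCh37, which is newer than the annotation used for counting, and all 39 genes matched it. All 39 are given a level or a log2 fold change, with values in every sample where the adjusted p passed and for NFE2L2, KEAP1, NQO1, HMOX1 and PGD; of the other lists, up to 4 called genes with the smallest p are named. A few more genes were given per sample after their values were seen. Genes, lists and tests were chosen with earlier results of these data known.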

Additional observations from a re-analysis of the deposited data

How the results depend on the processing

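The counts of 14 genes lower and 3 higher were 14 and 3 with DESeq2's size factors in edgeR (12.8% and 13.8% of all tested genes) and with edgeR's expression filter (18.5% and 18.9%), 15 and 3 with DESeq2 (12.1% and 12.9%), 17 and 3 with no filter beyond 1 count (11% and 11.3%), and 20 and 3 after the length and GC correction (17.1% and 17.2%), or 17 and 2 with the block added (13.1% and 13.5%). Leaving out 1 sample at a time gave 9 to 18 lower and 1 to 3 higher (8.99% to 17.3% and 10% to 17.4% of all tested genes). For the other pathway genes it gave 13 to 26 lower and 7 to 13 higher (19 and 10 over all samples), with METTL3 between −2.08 and −2.00. Of the 17 calls 10 held in each of those 6 fits. Without both samples numbered 3, 26 of the 39 genes and 36 of the other genes were lower. The replicate block gave 9 and 1 for the 39 genes (7.66% and 8.06% of all tested genes) and 12 and 6 for the other genes. Samples with the same number in their titles deviated from their groups with correlations of −0.58, −0.39 and −0.78. Because WT3 and METTL3-KO3 moved in opposite directions along transcript length, these values cannot show whether same-numbered samples were prepared together. The file names number WT2 and WT3 as 3 and 4, and by them WT1 with METTL3-KO1 (−0.58) and WT2 with METTL3-KO3 (0.635) would share a number. The file names also carry letters such as NC and SiM rather than WT and METTL3-KO, and the groups here follow the sample titles.

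Directions turned under these settings for SRXN1 and for genes whose log2 fold change over all samples was small. After the correction GSTP1 was at 0.031 and TXN at 0.027, and at 0.031 and 0.028 with the block added. Without both samples numbered 3, GCLM was at 0.11, GSR at 0.046, GPX1 at −0.092, TXNRD1 at 0.11, SRXN1 at 0.51, AKR1C3 at −0.041, ABCC1 at 0.028, FTH1 at −0.15 and PGLS at −0.18. In that fit TXNRD1 (adjusted p = 0.0170), FTH1 (0.00135) and PGLS (0.0113) passed the test in the turned direction, and the others did not. Leaving out 1 sample, the log2 fold change ran from −0.16 to 0.0070 for GPX4, −0.097 to 0.045 for GSTP1, −0.12 to 0.017 for PRDX6, −0.11 to 0.10 for GCLM, −0.036 to 0.034 for GSR, −0.015 to 0.16 for GPX1, −0.048 to 0.075 for TXNRD1, −0.81 to 0.23 for SRXN1, −0.14 to 0.014 for ABCC1, −0.067 to 0.090 for FTH1 and −0.095 to 0.15 for PGLS. Beyond the length pattern given above, the cause was not tested. Depth limits AKR1B1, SRXN1 and ABCC2, with 0 to 25 counts per sample.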
